A study of Mus musculus with 6 samples.

Results

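Plasma protein genes of the yolk sac and fetal liver were described in sorted germ cells made in culture, with and without knockdown of Dazl. The genes are Afp, Rbp4, Ttr, Ambp, Apoa1, Apoa2, Apob, Fga, Fgb and Fgg. All array probes carrying these gene names, controls left out, were taken, which gave 14 of 41174 probes and 10 of 27677 genes; no probe carried an older symbol. The genes were picked with their values on these same 6 arrays already known, by vector and by day. Their differences are therefore a description, with a standard error (SE) and no test.

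Each sample was total RNA from male mouse cells of a mixed C57BL/6 129SV strain, hybridised in 1 colour to an Agilent whole-genome array. Oct4-GFP embryonic stem cells, which report the activity of Pou5f1 by green fluorescence, carried a short hairpin vector against Dazl or a control vector, and every vector also brought the red marker tdTomato. Feeder cells were first removed by letting them settle on plastic; the cells were then differentiated on gelatin for 12 or 9 days, and cells positive for both colours were sorted as primordial germ cells. The 6 samples were hairpin 2, hairpin 1 and control at day 12, and hairpin 2, hairpin 1 and control at day 9, with 1 array each. The protein DAZL binds RNA and is specific to germ cells. The labels do not say whether a vector line was 1 clone or whether the days came from separate cultures. The 3 arrays of a day shared a slide, and each vector kept its place on both slides. Effects of day and of slide therefore cannot be told apart, nor can those of vector and of place on the slide.

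The labels were checked on their own genes. Dazl signal on probe A_52_P271166 was 178 with hairpin 2 and 145 with hairpin 1 at day 12, against 4190 in the control; at day 9 it was 154 and 79.3, against 1570. The sort marker Pou5f1 had signals of 11300 to 15900 on the 4 knockdown arrays and 7210 to 8480 on the 2 control arrays. Dppa3, a marker of primordial germ cells, had 4150 to 9130 on the knockdown arrays and 9640 to 9710 on the control arrays. Between 70.3% and 73.3% of the probes stood well above background on each array, and the dimmest such signal was 4.5 to 6.02.

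In the embryo, the visceral endoderm of the yolk sac secretes plasma proteins before the liver takes over, and alpha-fetoprotein is the best known of them. In liver and yolk sac many of these genes are under the transcription factors HNF1, HNF4 and FOXA. The proteins carry lipids, retinol and hormones in the blood, form clots or inhibit proteases. Transthyretin (Ttr) and albumin (Alb) are defining products of liver, and Ttr also of visceral endoderm. Neither had a signal well above background on any of the 6 arrays.

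Promoter windows are shown for 6 members that stand for the patterns in the values: Afp, Fgb and Apoa1, which were higher with both hairpins, Ambp, which was lower, and Fgg and Fga, the neighbours of Fgb. Each is the 250 bases before the gene's start in RefSeq (GRCm38.p6), written 5′ to 3′ on the gene's strand. Capitals mark matches to 1 of 5 motifs searched on both strands: GTTAAT, a half-site of HNF1, TGTTTAC for FOXA, AAAGTCC for HNF4, AGATAA for GATA factors and TATAAA, the TATA box.
Afp, chr5:90490464-90490713, plus strand: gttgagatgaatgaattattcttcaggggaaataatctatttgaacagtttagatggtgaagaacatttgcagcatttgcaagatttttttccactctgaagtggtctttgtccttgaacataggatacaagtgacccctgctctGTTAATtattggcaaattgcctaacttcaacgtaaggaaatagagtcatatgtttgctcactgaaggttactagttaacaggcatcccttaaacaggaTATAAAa
Fgb, chr3:83049864-83050113, minus strand: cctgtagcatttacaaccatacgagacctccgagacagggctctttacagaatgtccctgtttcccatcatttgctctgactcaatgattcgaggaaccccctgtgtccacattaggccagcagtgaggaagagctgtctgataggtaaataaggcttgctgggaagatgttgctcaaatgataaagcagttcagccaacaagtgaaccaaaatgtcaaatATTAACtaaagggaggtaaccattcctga
Apoa1, chr9:46228380-46228629, plus strand: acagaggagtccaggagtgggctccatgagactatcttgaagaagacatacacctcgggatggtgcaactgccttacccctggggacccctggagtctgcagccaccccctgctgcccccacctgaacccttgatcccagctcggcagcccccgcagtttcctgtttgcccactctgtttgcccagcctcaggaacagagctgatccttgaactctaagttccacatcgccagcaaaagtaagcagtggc
Ambp, chr4:63154173-63154422, minus strand: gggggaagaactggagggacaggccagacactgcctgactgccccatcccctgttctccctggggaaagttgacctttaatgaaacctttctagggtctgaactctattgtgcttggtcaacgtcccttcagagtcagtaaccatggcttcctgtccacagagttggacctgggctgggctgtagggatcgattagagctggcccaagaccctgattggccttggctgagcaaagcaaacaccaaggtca
Fgg, chr3:83007474-83007723, plus strand: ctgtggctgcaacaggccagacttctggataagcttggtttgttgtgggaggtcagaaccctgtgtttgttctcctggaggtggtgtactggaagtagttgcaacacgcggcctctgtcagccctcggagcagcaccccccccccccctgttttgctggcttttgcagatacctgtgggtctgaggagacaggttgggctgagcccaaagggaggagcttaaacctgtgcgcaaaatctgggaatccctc
Fga, chr3:83025903-83026152, plus strand: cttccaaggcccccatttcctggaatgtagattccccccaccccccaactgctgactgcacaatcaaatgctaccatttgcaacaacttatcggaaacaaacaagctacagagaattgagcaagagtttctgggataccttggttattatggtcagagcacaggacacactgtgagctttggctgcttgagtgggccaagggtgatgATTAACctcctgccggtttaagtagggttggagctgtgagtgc

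The Afp window held a GTTAAT at 105 to 100 bases before the start and a TATAAA at 7 to 2 bases before it. The Fgb and Fga windows each held GTTAAT on the opposite strand, at 29 to 24 bases before the start of Fgb and at 43 to 38 before that of Fga. The windows of Apoa1, Ambp and Fgg held none of the 5 strings. Among all 32851 promoter windows of this length, 6.43% held GTTAAT and 12.4% held TATAAA. The Ttr window was not searched. Among the members searched, the 3 with GTTAAT include Fga, whose probe was never well above background, and 2 that were higher with both hairpins. Of the windows searched but not shown, TGTTTAC was found for Apoa2 and Rbp4, AAAGTCC for Apoa2, and TATAAA for Apoa2, Apob and Rbp4. Among all promoter windows, 3.17% held TGTTTAC and 3.58% held AAAGTCC. The matches do not overlap each other, and a string in a window is neither a shown binding site nor a cause.

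Of the 10 genes, 8 had at least 1 probe well above background on 2 or more arrays, and these 8, with 10 probes, passed the filter and were fitted. The filter looks at all arrays together, so a gene could pass through the group in which it is high. Ttr signals were 1.77, 1.66 and 1.61 for hairpin 2, hairpin 1 and control at day 12, and 1.70, 1.75 and 1.64 at day 9. Fga, the alpha chain of fibrinogen, gave 1.84, 1.84 and 5.14 at day 12 and 4.27, 4.70 and 4.80 at day 9. None of these values was well above background, and no order is read from them.

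**Figure D1:**
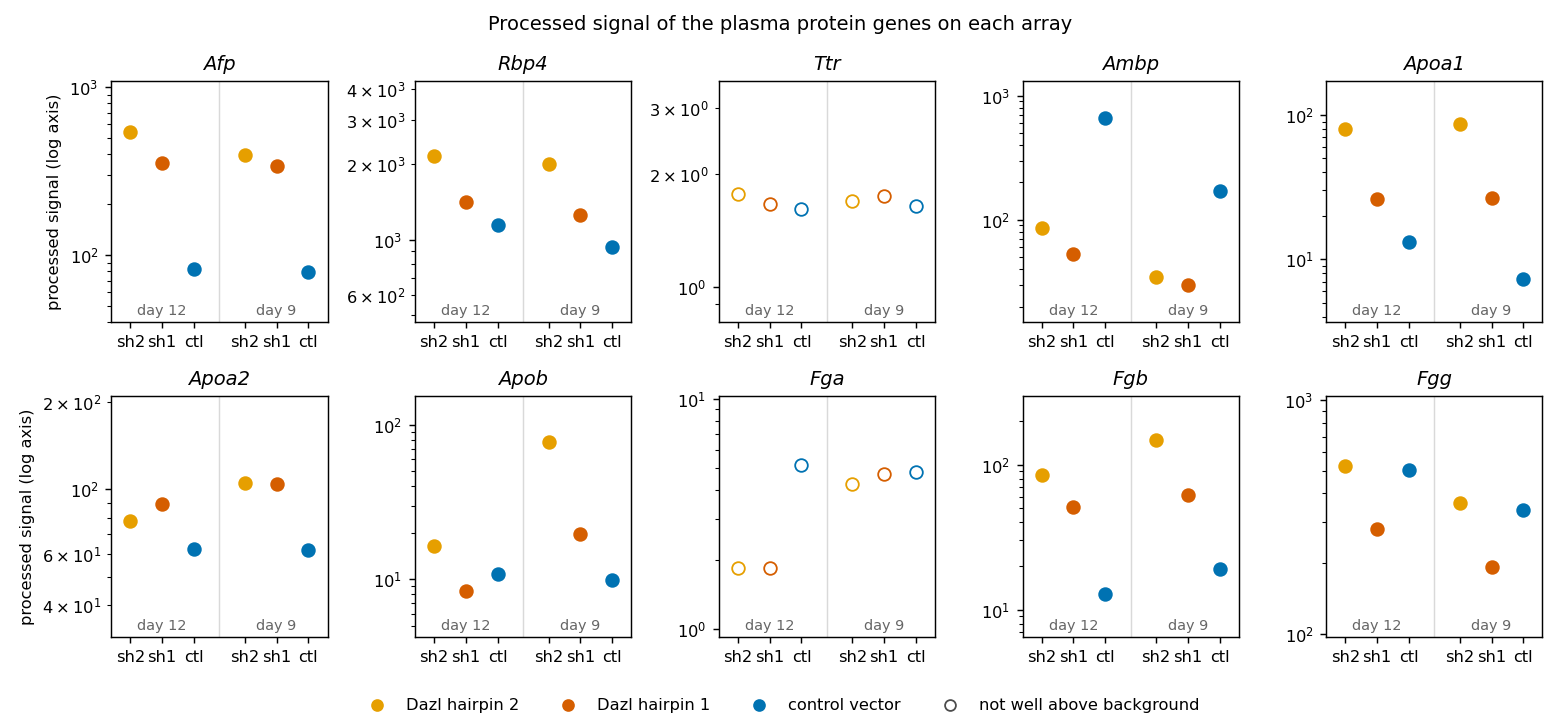
Processed signal (log axis, each panel with its own range) of the brightest probe of each of the 10 genes on each of the 6 arrays, with 1 point per array. sh2 and sh1 are Dazl hairpins 2 and 1, ctl is the control vector, and open points were not well above background. Afp, Apoa1 and Fgb sit above the control at both days, Ambp sits below it, and Ttr and Fga are open throughout.

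Among the carrier proteins, Afp, the main plasma protein of the fetus, was higher with both hairpins at both days. Its signal (probe A_51_P510891, NM_007423, chromosome 5) was 543 with hairpin 2 and 353 with hairpin 1 at day 12, against 83.1 in the control. At day 9 it was 396.5 with hairpin 2 and 337 with hairpin 1, against 79.4 in the control. Every knockdown array stood above both control arrays, and the controls of the 2 days were nearly level. For comparison between arrays, signals were taken to log2 with each array's 75th percentile set to 0; on that scale Afp averaged -0.76 ± 0.36 (SD, n = 4) with the hairpins and -3.03 ± 0.06 (SD, n = 2) with the control vector. The fitted difference was 2.27 (SE 0.24), a 4.81-fold higher level. The folds over the same day's control were 7.19 for hairpin 2 and 4.34 for hairpin 1 at day 12, and 4.21 and 4.07 at day 9.

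Rbp4, which carries retinol from liver and yolk sac, differed less. Its signal (A_51_P374752, NM_011255, chromosome 19) was 2150 with hairpin 2 and 1410 with hairpin 1 at day 12, against 1140 in the control, and 2000 and 1260 at day 9, against 935. The knockdown arrays lay above both controls here too. The log2 difference was 0.65 (SE 0.25), and the excess over the same day's control was 2.07-fold and 1.81-fold with hairpin 2 but 1.26-fold and 1.29-fold with hairpin 1, at days 12 and 9. Rbp4 circulates bound to Ttr, whose probe gave no signal above background in the same cells.

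Ambp, the precursor of alpha-1-microglobulin and of bikunin, a protease inhibitor, was lower with both hairpins at both days. Its signal (A_51_P145785, NM_007443, chromosome 4) was 85.2 with hairpin 2 and 53.5 with hairpin 1 at day 12, against 654 in the control. At day 9 it was 34.9 and 29.9, against 172. All 4 knockdown arrays lay below both controls. The knockdown arrays averaged -3.86 ± 0.73 (SD, n = 4) and the control arrays -0.98 ± 1.25 (SD, n = 2) on the log2 scale, and the fitted difference was -2.88 (SE 0.27). Its log2 difference of day 12 from day 9 was 1.36 (SE 0.25), with 3.42-fold more in the control, 2.86-fold more with hairpin 2 and 1.71-fold more with hairpin 1. The control at day 12 held the highest value and hairpin 1 at day 9 the lowest.

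The apolipoproteins build the particles that carry lipid in blood. Apoa1, the main protein of high-density lipoprotein, was higher with the hairpins, and more so with hairpin 2. Its signal (A_51_P408082, NM_009692, chromosome 9) was 79.7 with hairpin 2 and 26.2 with hairpin 1 at day 12, against 13.1 in the control, and 86.0 and 26.5 at day 9, against 7.30. The 4 knockdown arrays lay above both controls, and the 2 arrays of hairpin 2 lay well above the 2 of hairpin 1. The log2 difference of knockdown from control was 2.22 (SE 0.60). Its folds over the same day's control were 6.70 for hairpin 2 and 2.05 for hairpin 1 at day 12, and 9.94 and 3.47 at day 9.

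The Afp and Apoa1 probes were each printed 10 times on an array, which shows how far spots of 1 hybridisation scatter. The Afp spots ran from 469 to 583 with hairpin 2, from 332 to 373 with hairpin 1 and from 72.9 to 89.2 in the control at day 12. At day 9 they ran from 351 to 429, from 308 to 370 and from 66.7 to 88.9. The ranges of the hairpins and of the controls were apart at both days, while those of the 2 hairpins overlapped at day 9. The Apoa1 spots ran from 74.8 to 87.0 with hairpin 2, from 23.2 to 30.3 with hairpin 1 and from 11.8 to 15.5 in the control at day 12. At day 9 they ran from 76.2 to 101, from 21.3 to 33.6 and from 1.67 to 12.9. In that last control only 8 of the 10 Apoa1 spots were well above background, so its Apoa1 level is close to the limit of detection. Spots of 1 array share 1 RNA and are not replicates.

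**Figure D2:**
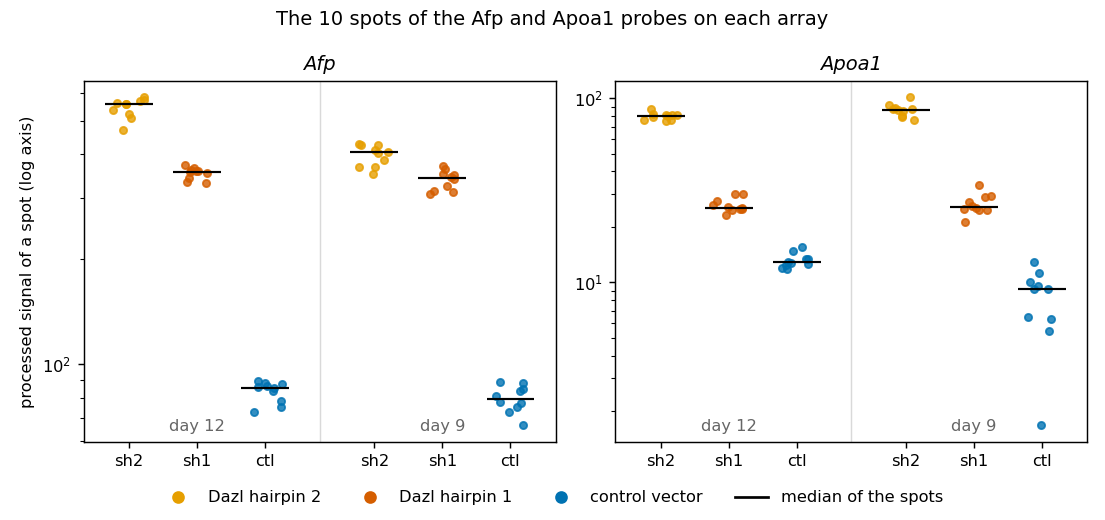
Processed signal (log axis) of the 10 spots of the Afp and the Apoa1 probe on each array, with points spread sideways for sight only and a bar at the median. sh2, sh1 and ctl are Dazl hairpin 2, Dazl hairpin 1 and the control vector. Spots of both hairpins lie above those of the control of the same day for both genes, and 1 Apoa1 spot of the day 9 control is at 1.67.

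Apoa2, the other major protein of high-density lipoprotein, differed little and alike with both hairpins. Its signal (A_51_P128973, NM_013474, chromosome 1) was 77.9 with hairpin 2 and 89.3 with hairpin 1 at day 12, against 62.1 in the control, and 105 and 104 at day 9, against 61.9. The log2 difference was 0.56 (SE 0.14). The folds over the same day's control were 1.38 to 1.61. Taken as log2 differences, they spanned the narrowest range among the 8 fitted genes.

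Apob, the scaffold of low-density lipoprotein and of the particles that yolk sac and liver secrete, had 5 probes, all on 1 gene of chromosome 12. The brightest (A_52_P441070) gave 16.5 with hairpin 2 and 8.46 with hairpin 1 at day 12, against 10.9 in the control. At day 9 it gave 76.6 with hairpin 2 and 19.5 with hairpin 1, against 9.98 in the control. The array of hairpin 2 at day 9 thus stood alone, and hairpin 1 at day 12 lay below the control of its day. Probe A_51_P470542 showed the same order at day 9, with 90.1, 19.5 and 7.40, and gave 17.4, 7.07 and 7.12 at day 12. Probe A_51_P413088 was well above background on 3 arrays only, at 21.4 with hairpin 2 of day 9, and at 9.74 with hairpin 2 and 10.4 in the control of day 12.

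The remaining 2 Apob probes, A_51_P380650 and A_51_P436690, were not well above background on any array. The log2 difference of knockdown from control on the 3 fitted probes was 1.0 (SE 0.63), 1.54 (SE 0.71) and 0.47 (SE 0.60), in the order above. For the brightest probe it was 0.20 (SE 0.82) at day 12 and 1.80 (SE 0.82) at day 9. The difference between the days, -1.60, came with an SE of 1.16. Leaving out the control of day 9 or of day 12 leaves just these values of the other day, so the Apob difference rests on day 9.

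**Figure D3:**
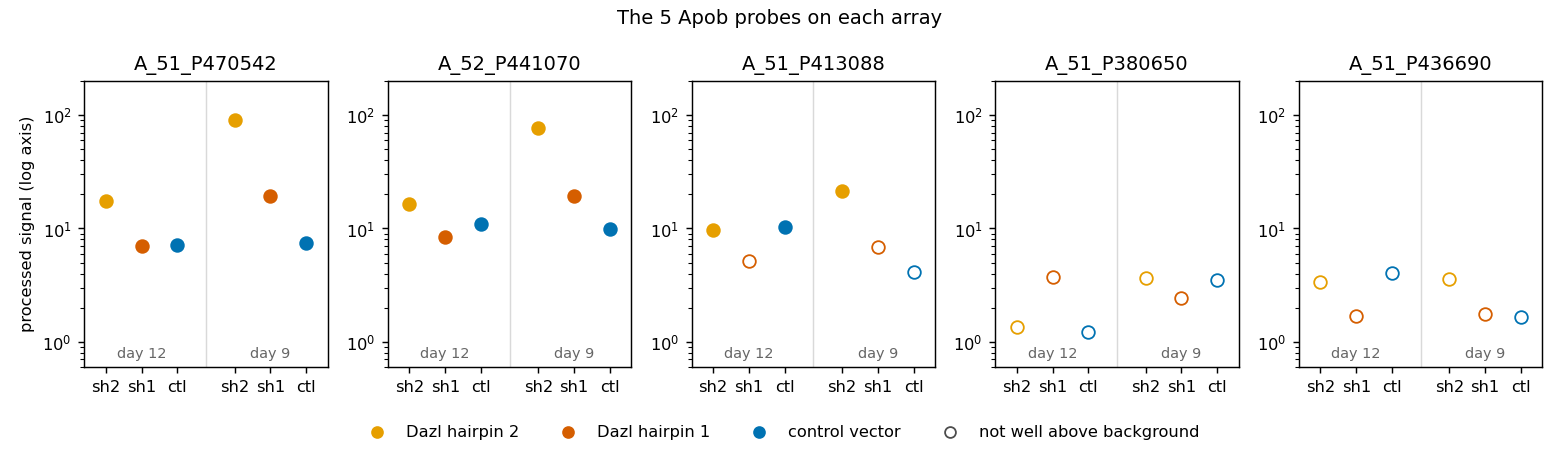
Processed signal (log axis, 1 range for all panels) of the 5 Apob probes on each array. sh2, sh1 and ctl are Dazl hairpin 2, Dazl hairpin 1 and the control vector, and open points were not well above background. On the 3 probes with any filled point the highest value is hairpin 2 at day 9, and the 2 probes on the right have open points only.

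Fibrinogen, the soluble protein that thrombin turns into the clot, is made of alpha, beta and gamma chains encoded next to each other on chromosome 3, in the order Fgg, Fga and Fgb. The chains with signal, Fgb and Fgg, parted in the comparison of knockdown with control, though both were higher with hairpin 2 than with hairpin 1. Fgb, the beta chain, was higher with both hairpins, Fgg, the gamma chain, was not, and Fga was below background. Fgb signal (A_51_P428483, NM_181849) was 84.4 with hairpin 2 and 51.2 with hairpin 1 at day 12, against 12.9 in the control, and 149 and 61.3 at day 9, against 19.0. The groups did not overlap, and the log2 difference was 2.31 (SE 0.37), 4.94-fold. Relative to the control of the same day, the folds were 7.20 for hairpin 2 and 4.06 for hairpin 1 at day 12, and 6.62 and 3.09 at day 9.

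Fgg signal (A_51_P362176, NM_133862) was 523 with hairpin 2 and 282 with hairpin 1 at day 12, against 505 in the control. At day 9 it was 365 with hairpin 2 and 193 with hairpin 1, against 339 in the control. Hairpin 2 and control were thus close at both days, and hairpin 1 was below both of them. The log2 difference of knockdown from control was -0.41 (SE 0.34). Plrg1, the next gene beyond Fgb and a splicing factor, had a log2 difference of -0.06 (SE 0.15).

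The genes beside Afp, and those next to Apoa1 on the side of Apoc3, had smaller differences or no signal well above background. Alb, which lies next to Afp on chromosome 5, was never well above background, and Afm on the other side of Afp, which encodes the vitamin E carrier afamin, had a log2 difference of 0.38 (SE 0.16). Apoc3, the neighbour of Apoa1 on chromosome 9, was never well above background, and Apoa4 and Apoa5 next to it had log2 differences of 0.52 (SE 0.27) and 0.17 (SE 0.17). These neighbours were chosen by position, but for Apoa1 only on the side of the other apolipoproteins. The genes on its other side, among them Sik3, were not read.

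**Figure D4:**
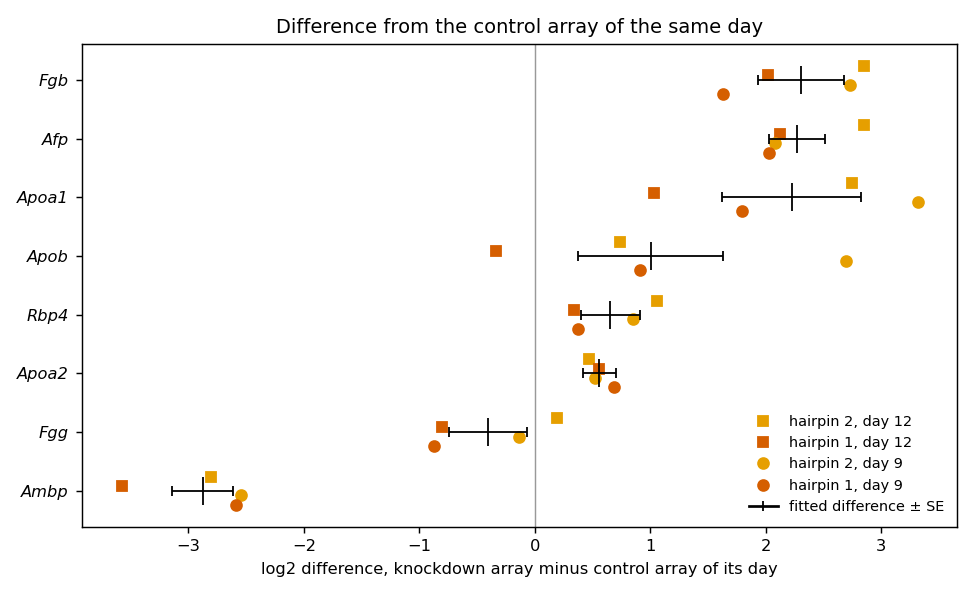
Log2 difference of each knockdown array from the control array of its day (log2 signal with each array's 75th percentile at 0), for the brightest probe of the 8 fitted genes, with the fitted difference ± SE in black. Fgb, Afp and Apoa1 lie at 1.03 or more in all 4 pairs, Ambp lies at -2.55 or less, and Apob and Fgg have pairs on both sides of 0.

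Taken as a count, 5 of the 8 fitted genes (Afp, Apoa1, Apoa2, Rbp4 and Fgb) had all 4 knockdown arrays above both control arrays, which 9.48% of all genes tested did, and 1 (Ambp) had all 4 below, which 10.3% did. Afp, Apoa1 and Fgb were at least 2-fold higher in each of the 4 comparisons of a hairpin array with its day's control, as were 0.129% of all genes, and Ambp was at least 2-fold lower, as were 0.173%. Since the genes were picked for such values, these shares only place them among all genes. With limma, 0 of the 10 fitted member probes had an adjusted p under 0.05 over the 30190 probes tested. Of all probes 2 did (0.00662%), 1 of them of Dazl (A_51_P246060, limma adjusted p 0.0046), and 2982 had an unadjusted p under 0.05. The other Dazl probe, A_52_P271166, had a limma adjusted p of 0.055 and did not pass. The median log2 difference of the 8 genes was 0.83, against -0.0014 for all genes tested. By day it was 0.60 at day 12 and 1.21 at day 9. In bulk RNA from sorted cells, more cells that make a plasma protein and more of its RNA per cell cannot be told apart.

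Levels also varied with the hairpin. Dazl itself had a log2 difference of hairpin 2 from hairpin 1 of 0.59 (SE 0.24) on probe A_52_P271166 and of -0.20 (SE 0.19) on its other probe, A_51_P246060. Hairpin 2 stood above hairpin 1 at both days for 7 of the 8 genes, which 32.2% of all genes did, and only Apoa2 was lower at both days, as were 26.5%. The log2 differences of hairpin 2 from hairpin 1 were 1.61 (SE 0.23) for Apoa1, 1.43 (SE 0.45) for the brightest Apob probe, 0.96 (SE 0.18) for Fgb and 0.87 (SE 0.18) for Fgg. Rbp4 had 0.60 (SE 0.17), Ambp 0.41 (SE 0.27), Afp 0.39 (SE 0.24) and Apoa2 -0.13 (SE 0.17). For Afp the ratio of hairpin 2 to hairpin 1 was 1.65 at day 12 and 1.03 at day 9, and for Ambp it was 1.71 and 1.03. For Apoa1 it was 3.27 and 2.86. The median over the 8 genes was 0.73, against 0.020 for all genes. In this contrast 1 of 30190 probes passed (0.00331%), 0 of them members, and 3217 had an unadjusted p under 0.05.

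The days differed less. Day 12 was above day 9 for all 3 vectors for Rbp4, Fgg and Ambp, a pattern 20.6% of all genes showed, and below it for Apoa2, Apob and Fgb, a pattern of 19.6%. On its brightest probe Apob had 3.96-fold less at day 12 with hairpin 2 and 2.41-fold less with hairpin 1, while its controls were about level. On probe A_51_P413088 the control was 2.27-fold higher at day 12, but its day 9 signal was not well above background. Afp in the control had 0.940 times its day 9 level at day 12. The knockdown differences of Afp were 2.48 (SE 0.36) at day 12 and 2.05 (SE 0.36) at day 9, those of Fgb 2.43 (SE 0.57) and 2.18 (SE 0.57), and those of Apoa1 1.89 (SE 0.90) and 2.56 (SE 0.90). For Ambp they were -3.19 (SE 0.37) and -2.57 (SE 0.37). In the day contrast 17 of 30190 probes passed (0.0563%), 0 of them members, and 3220 had an unadjusted p under 0.05.

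The wider plasma protein repertoire was read from lists of genes, chosen with earlier results of these data known. In this and the following lists a gene could pass the filter through knockdown arrays alone, as Cp, F10, Vtn and Cer1 did. Such a gene is likely to count as higher for that reason. The share of all genes that were higher was not counted, and the median of all genes tested was -0.0014. Among 17 fitted genes of other plasma proteins, 12 were higher and 5 lower with knockdown, with a median log2 difference of 0.26. Igfbp1, which binds insulin-like growth factors, came nearest to Afp: its signal was 58.1 with hairpin 2 and 46.3 with hairpin 1 at day 12, against 11 in the control, and 39.0 and 22.5 at day 9, against 10.3. Its log2 difference was 1.85 (SE 0.30). Haptoglobin (Hp) had 0.87 (SE 0.32) and kininogen (Kng1) 0.76 (SE 0.14). Ceruloplasmin (Cp) was above background with hairpin 2 only, and its mean over both hairpins was 1.01-fold the limit set for the control. Alb, Serpina1b, Apoh, A1bg and Serpina6 were never well above background. The list's median was 0.10 without the control array of day 12 and 0.46 without that of day 9.

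Genes of lipoprotein assembly and lipid transport were higher for 14 of 18, with a median of 0.26. They include the receptor Lrp1 (0.87, SE 0.16), the cholesterol exporter Abca1 (0.68, SE 0.21) and the phospholipid transfer protein Pltp (0.66, SE 0.22), while the sterol exporter Abcg5 had -0.81 (SE 0.20). Coagulation and fibrinolysis genes were higher for 14 of 16, with a median of 0.23; Proc, the protein C zymogen, had 0.57 (SE 0.31) and the thrombin receptor Thbd 0.53 (SE 0.30). Coagulation factor F10 and vitronectin, Vtn, were above background with hairpin 2 only. Their means over both hairpins were 1.71-fold and 1.2-fold the limit set for the control. Genes of retinol and thyroid hormone handling were higher for 7 of 13, with a median of 0.05. In that list the Rbp4 receptor Stra6 -0.33 (SE 0.16), the deiodinase Dio3 -0.44 (SE 0.29) and the retinol esterifying enzyme Lrat -0.40 (SE 0.43). When 1 array was left out in turn, the lipoprotein median ran from 0.12 (without the control of day 9) to 0.29, and the coagulation median from 0.06 (without the control of day 12) to 0.46 (without the control of day 9), with 0.16 without hairpin 1 of day 9 and 0.14 without hairpin 2 of day 12. The retinol and thyroid hormone median ran from -0.08 to 0.06 and was below 0 without either control array or either array of hairpin 2. By limma over all 30190 probes, 0 of the probes that stood for genes of the 12 lists passed in the knockdown, hairpin or day contrast, where the numbers of probes with an unadjusted p under 0.05 are those given above.

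Markers of the tissues that make plasma proteins gave the following values. Of 19 endoderm and liver transcription factors 15 were higher, with a median of 0.17, which was 0.03 without the control array of day 12. Hnf4a, a main regulator of liver genes, had a difference of 0.02 and is named because its motif was searched; Foxa2 had 0.92 (SE 0.27), Sox17 0.83 (SE 0.28), Sox7 0.83 (SE 0.66) and Cebpb -0.72 (SE 0.39). Of 17 visceral endoderm genes 11 were higher, with a median of 0.20, and each was well above background on at least 2 arrays. That median turned to -0.02 without hairpin 1 of day 9, was 0.10 without the control of day 12 and 0.12 without hairpin 1 of day 12, and was 0.35 without hairpin 2 of day 9. Their signal was also summed, each gene over its array's 75th percentile. At day 12 the sum was 187 with hairpin 2 and 135 with hairpin 1, against 207 in the control. At day 9 it was 118 and 137, against 164. The sum was thus below the same day's control with both hairpins at both days. The protease Ctsh had 1.22 (SE 0.27), the signal Ihh 0.99 (SE 0.49) and the sterol acyltransferase Soat2 0.89 (SE 0.22). Cer1, an antagonist of Nodal, was above background with hairpin 2 only, and its mean over both hairpins was 1.25-fold the limit set for the control.

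Of 13 parietal endoderm genes 12 were higher with knockdown, with a median of 0.53, which becomes 0.18 without the control array of day 12. Their summed signal was 97.8 with hairpin 2 and 115 with hairpin 1 at day 12, against 73.4 in the control. At day 9 it was 77.8 and 118, against 86.0. Srgn had 1.27 (SE 0.62), laminin Lama1 0.89 (SE 0.30), collagen Col4a1 0.64 (SE 0.31) and Nid1 0.63 (SE 0.29). Hepatocyte enzymes and receptors were higher for 7 of 12, with a median of 0.03 and summed signals of 15.7 to 23.6 and 17.8 to 18; Fah had 0.80 (SE 0.22), Cyp3a11 -0.53 (SE 0.16), Arg1 -0.37 (SE 0.40) and Pck1 -0.36 (SE 0.19), and Cyp7a1, Otc and Cyp2e1 were never above background. Definitive endoderm and gut genes were higher for 7 of 13, with a median of 0.22, summed signals of 11.4 to 15.5 and 11.1 to 13.2, and Shh and Cdh17 never above background. The gut median was 0.01, 0.03 and 0.05 without the control of day 12, hairpin 1 of day 12 and hairpin 1 of day 9, and 0.43 and 0.38 without the control and hairpin 2 of day 9. The hepatocyte median ran from -0.03 (without hairpin 2 of day 12) to 0.09 (without hairpin 1 of day 12). Sox9 had -1.11 (SE 0.19), Muc13 1.10 (SE 0.58), Cldn6 -0.52 (SE 0.20) and Cdx2 0.49 (SE 0.81).

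Fibroblast genes, which feeder cells also express, were higher in the knockdown for 14 of 14, with a median of 0.69, which was 0.39 without the control array of day 12 and 1.0 without that of day 9. Their summed signal was 5.64 to 9.84 on knockdown and 3.58 to 7.35 on control arrays. Lum had 2.16 (SE 0.47), Col3a1 1.48 (SE 0.45), Postn 1.31 (SE 0.41) and Lox was at least 1.79-fold higher. Yolk sac blood and endothelium genes were higher for 9 of 12, with a median of 0.13 and summed signals of 1.55 to 2.19 and 1.64 to 1.97; the embryonic globin Hba-x was never above background, and Gata1 had -1.17 (SE 0.23), Tal1 0.49 (SE 0.21), Klf1 0.32 (SE 0.15) and Emcn at least 1.21-fold more. Germ cell and sort markers were higher for 3 of 11, with a median of -0.10; Nanog, a pluripotency factor, had 0.38 (SE 0.30). With 1 array left out, the blood and endothelium median ran from 0.11 to 0.25 (0.20 or more without any array of day 9 or without hairpin 1 of day 12), and the germ cell median from -0.20 (without the control of day 12; -0.16 without hairpin 1 of day 9) to -0.06 (without the control of day 9). The part of any of these cell types in the plasma protein values was not tested.

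Between the hairpins the plasma protein and fibroblast medians were above 0 and those of visceral and parietal endoderm below it. The medians of the germ cell (0.21), blood and endothelium (0.21), retinol and thyroid hormone (0.13), hepatocyte (0.13), coagulation (0.09) and lipoprotein (0.07) lists were also above 0. That of definitive endoderm and gut was below it (-0.22). The median log2 difference of hairpin 2 from hairpin 1 was 0.59 for the fibroblast list and 0.39 for the other plasma proteins. It was -0.27 for visceral endoderm, with 5 of 17 higher, and -0.59 for parietal endoderm, with 0 of 13 higher. Sox7 (-1.48, SE 0.47), Srgn (-1.66, SE 0.25) and Cdx2 (-2.26, SE 0.19) were lower with hairpin 2. Cer1 had signals of 38.5 at day 12 and 12.5 at day 9 with hairpin 2 and was not well above background on the other 4 arrays. Cubn, the visceral endoderm receptor that takes up apolipoprotein A-I, had -2.40 (SE 0.33); it was singled out after its values were seen. The median of the transcription factors was -0.16, and it turned to 0.24 after normexp background correction, where the median of all probes was 0.21. After the same correction the median of definitive endoderm and gut turned to 0.208. That of the germ cell list fell to 0.15, below the median of all probes. The other list medians kept their sign.

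**Figure D5:**
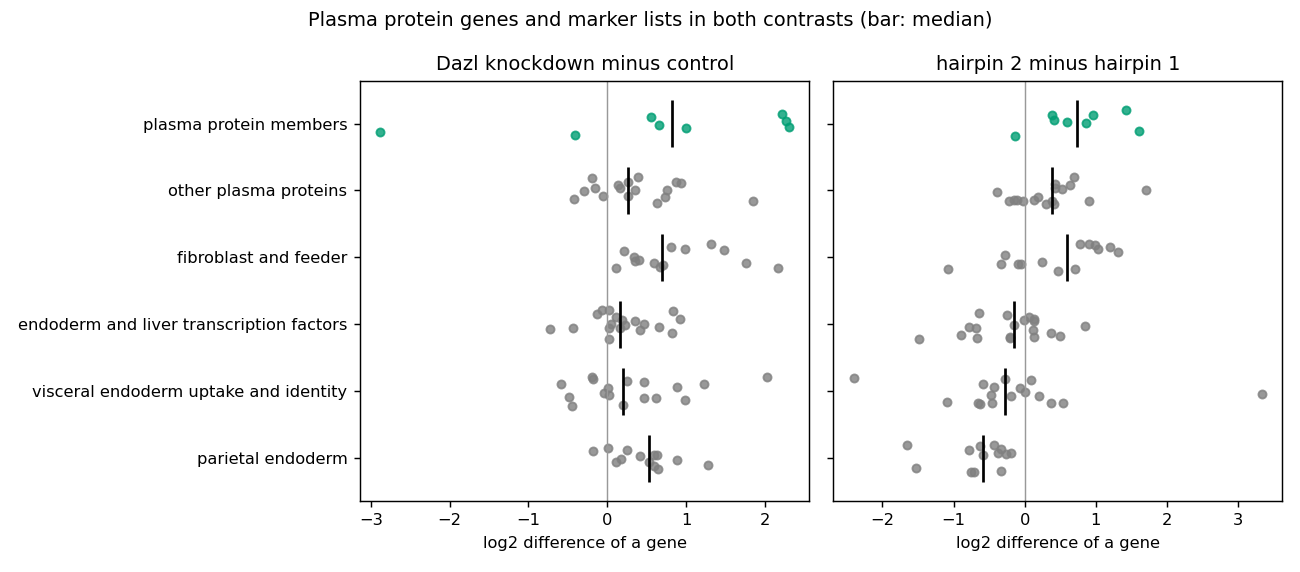
Log2 differences of single genes, knockdown minus control (left) and hairpin 2 minus hairpin 1 (right), for the 8 fitted plasma protein genes (green) and 5 of the 12 lists (grey), with a bar at each median. The plasma protein median is 0.83 on the left and 0.73 on the right, the fibroblast median is 0.69 and 0.59, and the parietal endoderm median is 0.53 and -0.59.

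The genes whose levels over the 6 arrays were most like those of Afp and Ambp were ranked by the root mean square distance of log2 profiles centred on their means, among 18474 genes well above background on all arrays. Nearest to Afp were Igfbp1 (distance 0.35), the protease inhibitor Ctla2a (0.45), Col3a1 (0.47), Gngt2 (0.47) and Stmn2 (0.48). Nearest to Ambp were Fabp9, a fatty acid binding protein of testis (0.67), Asb9 (0.72), 1700049E17Rik1 (0.73), Sycp1-ps1 (0.75) and the carbonic anhydrase Car6 (0.75). The distances for Ambp were all larger than those for Afp, and with 6 arrays they are a description only.

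Signal level limits these values unevenly. After normexp background correction with an offset of 50, which compresses dim signals by its construction, the knockdown differences were 1.70 for Afp, 0.78 for Apoa1, 0.91 for Fgb and -1.60 for Ambp, where the median of all probes was 0.12. They kept their direction relative to that shift, at 1.58, 0.66, 0.79 and -1.71.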

How the data were processed

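Total RNA of 6 mouse samples was measured on Agilent 1-colour arrays, 1 array per sample. Per the file headers, the authors' scanner files hold the intensity of each spot after background subtraction in Agilent Feature Extraction 9.1.3.1, with no scaling across arrays. The authors' deposited table holds a ratio of signal to a constant per array, with a column median of 1, as tested on the values. The deposited quality score was used only for matching table entries to spots. Spots of 1 probe were averaged, log2 values were centred so that the 75th percentile of an array is 0, and the filter asked for 2 of 6 arrays well above background with no value missing through outlier flags; it left 30190 probes of 20220 genes. A gene was read by its brightest probe. Names came from the accession for 22951 probes, the symbol or a synonym for 9755 and the array alone for 8468, through RefSeq (GRCm38.p6); promoters came from the same source.

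Fits used limma 3.58.1 in R 4.3.3, two-sided, with Benjamini-Hochberg adjusted p under 0.05. Knockdown and day shared 1 fit; hairpin 2 against hairpin 1 was fitted with day and vector; a fit with 4 groups gave the effect at each day and assumes that a lone control array varies like the hairpin pairs. Separate cultures are not stated in the labels; the p-values cover only how far these samples differ, which may be technical, and the number of arrays limits the precision. Where both control arrays were below background, a fold is the knockdown mean over a limit set for the control. That limit is the higher of the control's own signal and the array's dimmest signal well above background. Knockdown signals below background entered the mean as they were, so where hairpin 1 was not detected the fold is no strict lower bound.

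The members and the 12 lists were chosen with earlier results of these data known. Named genes are all members, Dazl, up to 4 genes per list of largest knockdown difference, and the 5 genes nearest in profile to Afp and to Ambp; some list genes are not reported here. As a check of pairing, deviations from the day's mean were correlated across 20220 genes: arrays of the same vector gave r of 0.54, 0.26 and 0.38, and arrays of different vectors -0.34 to -0.02. The deviations of a day cancel out for each gene, so positive r within vectors forces negative r between vectors. The negative values are therefore no separate support for the pairing. A fit with the vector as a replicate block was added because of the r within vectors. It enters the vectors as fixed terms, which takes differences between vectors out of the error. Neither it nor the main fit allows for the likeness of arrays of the same vector in the SE of the knockdown difference. Those SEs treat arrays of the same vector as separate samples and may be too small. Alternatives were quantile normalization, normexp background correction, no filter, a strict filter, the brightest probe per gene, the deposited table (floored before log2 at the lowest value of a probe well above background), a trend and robust prior, the block, and each array left out.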

Additional observations from a re-analysis of the deposited data

How the results depend on the processing

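Over 14 settings besides the one reported, values were set against a spread taken from the SE of the fit. Of the values for single genes and the knockdown medians of lists, 470 moved by less than that spread and 26 by more. Many of the 470 could not move. The 2 filter settings, the brightest probe, the prior and the block reuse the same probe values, so the difference of a single gene stays the same. Leaving out a control array likewise leaves each hairpin difference unchanged. Of the counts of probes called, judged by their ratio, and the member medians, 48 stayed the same and 34 moved. None was counted as reversed, which asked for a change of sign in a value larger than that spread. Smaller values did change sign, among them the median day difference and the visceral endoderm knockdown median. The hairpin medians of the lists were not in this count. The number of probes called in the knockdown contrast, 2, became 0 with the brightest probe per gene and 4 in the replicate block fit by vector, in which 0 members were called; leaving out 1 array gave 0 to 1. The 17 probes of the day contrast became 10 with quantile normalization, 1 with normexp, 0 with no filter, 30 with the brightest probe per gene, 4 with a trended, robust prior and 245 with the replicate block; dropping 1 array gave 0 to 3. The 1 probe of the hairpin contrast became 91 with normexp, 0 with no filter, 3 with the strict filter, 14 with the brightest probe per gene, 5 with the deposited table and 30 with a trended, robust prior. Leaving out 1 array there gave 0 to 1560, with 1 residual degree of freedom; without either control array, 4 member probes (1 of Apoa1, 3 of Apob) were among 593, and without hairpin 1 of day 9 the Apoa1 probe was among 111. The median knockdown difference of the 8 genes, 0.83, was 0.57 to 1.21 when 1 array was left out, with 1.21 without the control of day 12, and 0.53 to 0.87 under the other settings. The median day difference, 0.19, was -0.11 to 0.37, with -0.11 without hairpin 2 of day 12. The median hairpin difference, 0.73, was 0.60 to 0.82. Leaving out 1 array moved the Apob knockdown difference over 0.20 to 1.80, and the Afp day difference over -0.05 to 0.37. With normexp the hairpin difference of Apoa2 was 0.13, against a median of all probes of 0.21. The replicate block changed no other call of a member. The cause of these changes was not tested. Low signal limits Apob, Apoa1 in the controls, and Ttr and Fga most.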
